A study of Chlorocebus sabaeus with 10 samples.

Results

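The miR-26 family was examined in small RNA sequencing data from vervet monkey livers. Its members were chosen by name from the table of known miRNAs: hsa-miR-26a-5p, hsa-miR-26b-5p, hsa-miR-26a-1-3p, hsa-miR-26a-2-3p and hsa-miR-26b-3p, which are 5 of the 2588 mature names and stand on 6 of the 2948 rows. The series holds livers of 5 female vervets given the high fructose (HFr) diet and 5 female vervets given the chow diet; the animals were age-matched, all had eaten chow beforehand, and feeding lasted several weeks. Each row of the table joins a mature miRNA with 1 of its precursor hairpins, under human names. The library columns bear names that match no labelled animal, so no library was assigned to a diet, and no difference between HFr and chow livers is reported. All values below are the authors' total of raw reads over all libraries, a pool without replicates.

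A miRNA hairpin is cut into a duplex whose 5p and 3p strands can each be loaded into a silencing complex, where bases near the 5′ end (the seed) select target mRNAs. In the human genome the hairpins mir-26a-1, mir-26a-2 and mir-26b lie in introns of CTDSPL, CTDSP2 and CTDSP1, paralogous genes for small phosphatases that act on RNA polymerase II and can act on the retinoblastoma protein. mir-26a-1 and mir-26a-2 give the same 5p miRNA, and miR-26b-5p has the same seed. In liver the family is known for restraining hepatocyte proliferation, through targets such as cyclins and the histone methyltransferase EZH2, and miR-26a has been tied to hepatic insulin sensitivity and fatty acid synthesis in mice. The vervet gene table of RefSeq (assembly mChlSab1.0.hap1) lists all 3 host genes, on 3 different chromosomes. It lists 0 genes of type miRNA, so the position of the hairpins within the vervet genes was not examined.

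The labelled tissue was reflected in the pool. The hepatocyte miRNAs miR-122-5p, miR-192-5p, miR-194-5p and miR-148a-3p held 49.7% of reads (4.51% without miR-122-5p), compared to 3.16% for the stellate cell and fibroblast pair (miR-143-3p, miR-199a-3p), 0.996% for endothelial miR-126-3p, 0.531% for the erythroid pair (miR-451a, miR-486-5p) and 0.0948% for the leukocyte pair (miR-142-3p, miR-223-3p). From which of these cells the miR-26 reads came cannot be told from a pool of whole tissue. Shares refer to 2043164 reads, obtained by keeping the highest row of each mature name. Intervals are 95% intervals (Wilson for shares, exact Poisson for counts, exact binomial for ratios). They treat reads as independent and cover counting error only, not the spread between animals.

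The miR-26 family was among the most abundant in the liver, and nearly all of its reads came from the 5p arms. The 5 members had 88402 reads, or 4.33% of the pool (interval 4.30 to 4.35%). This sum takes the reads of the members as distinct. Whether reads that fit both 5p strands were entered under both names was not examined. With miR-122-5p, which alone held 45.2% of the pool, left out of the total, the family held 7.89%. When reads were added over all names with the same number, miR-26 ranked 4 of 346 numbered families with reads. It followed miR-122, let-7 (16.0%) and miR-21 (4.46%), and came before miR-30 (4.11%) and miR-378 (2.59%).

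The 5p members, the strands that carry the shared seed, had similar counts. hsa-miR-26a-5p had 43403 reads, 2.12% of the pool (interval 2.10 to 2.14%), and hsa-miR-26b-5p had 44887 reads, or 2.20% (interval 2.18 to 2.22%). miR-26a-5p is listed at both of its hairpins, with 43386 reads at mir-26a-1 and 43403 at mir-26a-2, a difference of 17 reads or 0.0392%. Most mature names on several hairpins behave in this way: of 28 names with at least 100 reads, 20 had rows within 1% of each other, and 8 had rows closer together than those of miR-26a-5p. The 5p reads therefore do not tell how much each of the mir-26a hairpins contributed.

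**Figure D1:**
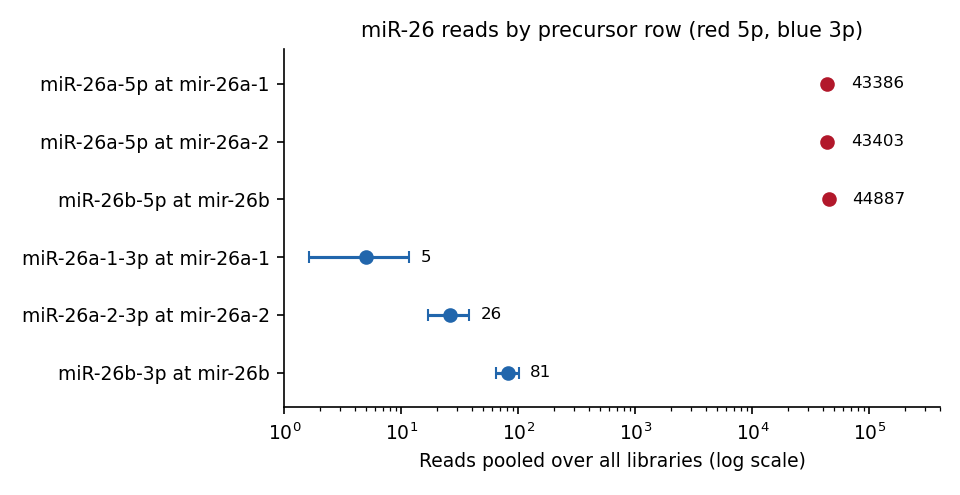
Pooled reads of each miR-26 row on a log axis, with points for counts and bars for 95% exact Poisson intervals, 5p rows above 3p rows. The 5p rows lie between 43386 and 44887 reads, and the 3p rows at 5, 26 and 81 reads.

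The ratio of miR-26a-5p to miR-26b-5p was 0.967 (interval 0.954 to 0.980). This small deficit of miR-26a-5p exceeded counting error, but it depended on how the mir-26a rows were counted. When both rows were added, miR-26a-5p had 86789 reads and exceeded miR-26b-5p by 1.93-fold (interval 1.91 to 1.96). Adding the rows would count the same reads repeatedly if a read that fits both hairpins was entered at each. Columns of single libraries match no sample and were not used, so whether a difference of this size holds from liver to liver was not examined. The mature strands differ by few bases, and the number of mismatches allowed in counting is not given in the sources used here.

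The counts of the miR-26 pair were closer to each other than those of the other lettered pairs compared, in which names with identical counts at identical hairpins were counted once. This left out miR-199a-3p and miR-199b-3p, which carry the same 22258 reads. In the 22 pairs formed by the leading and the next lettered member of a family on the same arm, each with at least 100 reads, the median ratio of leading to next was 2.66, whereas that of miR-26b-5p to miR-26a-5p was 1.03, the lowest of the 22. The next lowest were miR-30a-3p over miR-30e-3p (1237 and 1178 reads, 1.05-fold) and miR-15a-5p over miR-15b-5p (1397 and 1294 reads, 1.08-fold). No intervals were computed for the ratios of the other pairs. The order among the closest pairs therefore rests on point values, and whether it exceeds counting error was not tested. At the other end, miR-148a-3p exceeded miR-148b-3p by 21.6-fold. With every name counted, the miR-199 pair (ratio 1) came first and the miR-26 pair took place 2 of 23, with a median ratio of 1.80. With all precursor rows added, the miR-26 pair took place 11 of 23, with miR-26a-5p as the leading member. This comparison was made after the values were seen and describes the pool only.

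**Figure D2:**
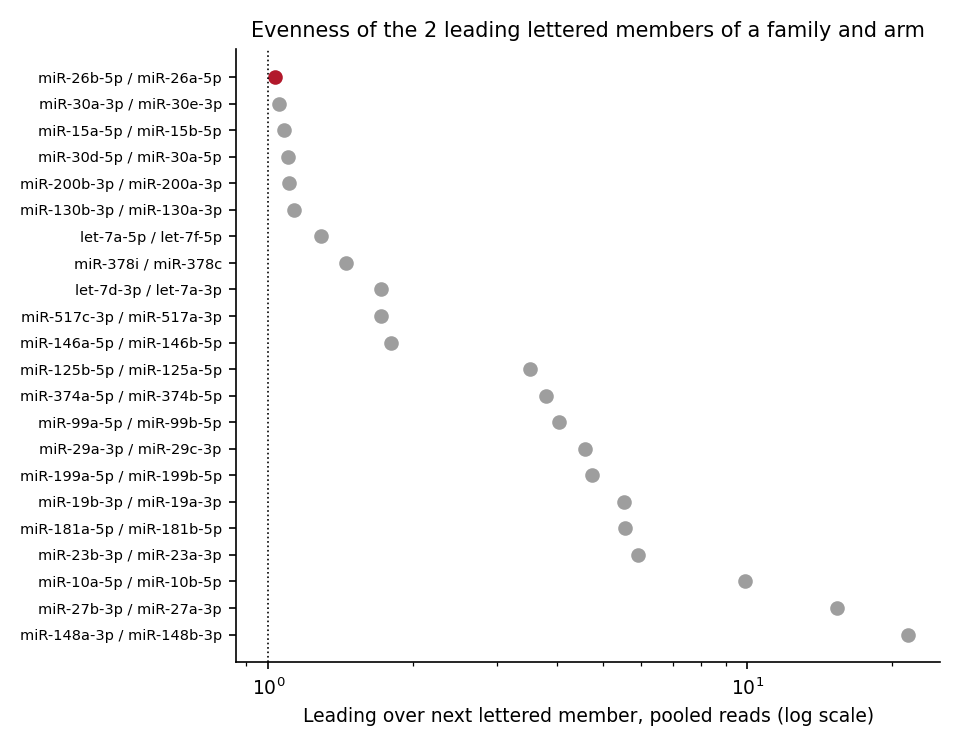
Ratio of the leading to the next lettered member of a miRNA family on the same arm, in pooled reads on a log axis, 1 point for each of 22 pairs (names with identical counts at identical hairpins counted once, which leaves out miR-199a-3p and miR-199b-3p). The miR-26 pair (red) lies at 1.03, closest to the dotted line at equality, and the median over all pairs is 2.66. Counting error is not drawn.

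By reads, miR-26b-5p ranked 7 and miR-26a-5p ranked 8 of all mature names. Directly above them stood miR-378a-3p, which lies in an intron of the coactivator gene PPARGC1B in human (51168 reads), and the hepatocyte miRNA miR-194-5p (46304 reads). Directly below stood miR-143-3p, a miRNA of mesenchymal cells (42313 reads), and let-7b-5p (35053 reads). The ratio of miR-26b-5p to miR-194-5p was 0.969 (interval 0.957 to 0.982) and that of miR-26a-5p to miR-143-3p was 1.03 (interval 1.01 to 1.04). Neighbours from place 6 to place 9 differed by more than counting error, but by only a few percent. The order against miR-194-5p depended on its rows, which held 46304 and 31630 reads: the ratio of miR-26b-5p to it was 1.42 with the lowest row and 0.576 with rows added. With all rows added, miR-26a-5p ranked 5 and miR-26b-5p ranked 11.

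The 3p members are passenger strands in most tissues and were rare here. hsa-miR-26b-3p had 81 reads (interval 64.3 to 100.7) and ranked 223, beside miR-99a-3p, miR-1323, miR-154-3p and miR-16-2-3p with 79 to 82 reads. hsa-miR-26a-2-3p had 26 reads (interval 17.0 to 38.1) and ranked 308, beside miR-433-3p, miR-206, miR-516b-5p and miR-7641 with 26 or 27 reads. hsa-miR-26a-1-3p had 5 reads (interval 1.62 to 11.7) and shared its place, 455, with 10 other names, among them miR-19b-1-5p, miR-210-5p, miR-296-3p and miR-3913-3p. Counts this low do not separate a 3p member from its neighbours in the order. Together the 3p members made up 112 reads, or 0.127% of the family (interval 0.105 to 0.152%).

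All 5 members had at least 1 read, against 26.3% of all mature names. At least 10 reads were found for 4 members, against 15.6% of names, and at least 100 reads for 2 members, against 7.88% of names. The members were chosen with earlier results of these data known, so these counts are a description and not a test. The median of the names with reads was 16 reads, which lies below miR-26a-2-3p and above miR-26a-1-3p. At 5 reads over all libraries, miR-26a-1-3p cannot have been counted in more than 5 of the 10 libraries.

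**Figure D3:**
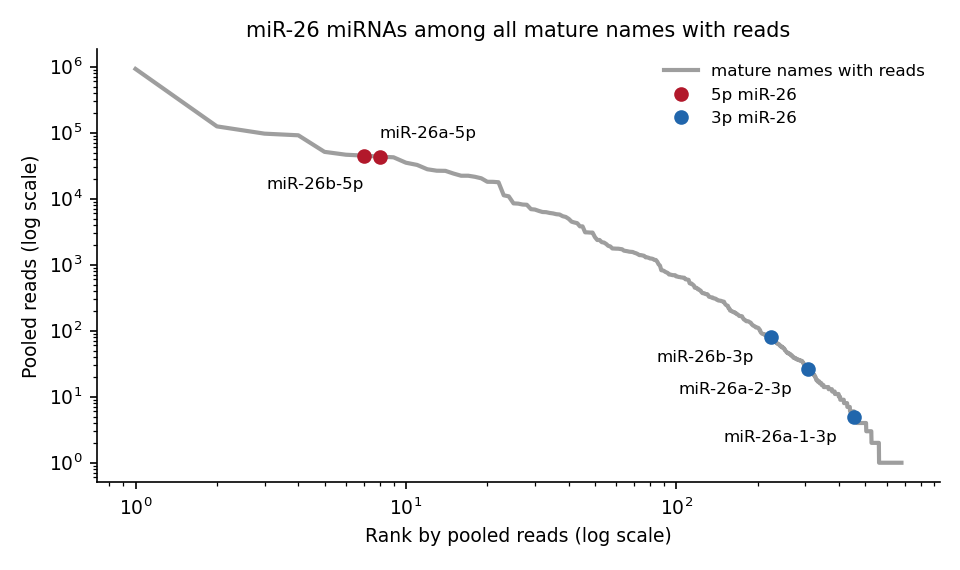
Pooled reads of the 680 mature names with reads (grey line) against their rank, both on log axes, with the 5p (red) and 3p (blue) miR-26 miRNAs marked. The 5p members take places 7 and 8 and the 3p members places 223, 308 and 455.

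Unlike miR-26a-5p, each 3p member belongs to 1 hairpin, and its reads can be compared between hairpins. The 3p order was mir-26b, then mir-26a-2, then mir-26a-1. miR-26a-2-3p had 5.20 times the reads of miR-26a-1-3p (interval 1.96 to 17.3), miR-26b-3p had 3.12 times those of miR-26a-2-3p (interval 1.98 to 5.05), and miR-26b-3p had 16.2 times those of miR-26a-1-3p (interval 6.66 to 51.2). Each of the 3 intervals lay above 1. miR-26b-3p also exceeded both miR-26a 3p miRNAs together (31 reads) by 2.61-fold (interval 1.71 to 4.09), although the 5p counts of miR-26b and miR-26a were nearly equal. For every 100000 reads of the 5p miRNA there were 180.5 reads of the 3p strand for miR-26b and 71.4 for miR-26a, a ratio of 2.53 (interval 1.65 to 3.96). The near equality of the 5p counts and this ratio both use the highest row of miR-26a-5p. With its rows added (86789 reads), the value for miR-26a would be lower and the ratio higher. Reads were counted under human names, and a vervet strand with other bases than its human counterpart can be undercounted; its part in the 3p differences was not tested.

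The dominance of the 5p arm was common to all 3 hairpins. The 3p arm held 0.180% of the reads of mir-26b (interval 0.145 to 0.224%), 0.0599% of those of mir-26a-2 (interval 0.0409 to 0.0877%) and 0.0115% of those of mir-26a-1 (interval 0.00492 to 0.0270%). For the mir-26a hairpins these shares use the shared 5p row in full and are therefore low estimates if the 5p reads come from both. As a background, 179 hairpins that reach 100 reads and have a name for each arm were taken. The 5p arm was the major one in 55.3% of them, the median share of the minor arm was 0.893%, and the minor arm had 0 reads in 20. A larger minor arm share than in mir-26b was found in 74.9% of the 179, than in mir-26a-2 in 83.2%, and than in mir-26a-1 in 86.6%. Minor arms are harder to detect in shallow hairpins, so the 31 hairpins with at least 10000 reads were also compared. In these the minor share ranged from 0 to 9.73%, and the median, 0.180%, was that of mir-26b itself. mir-26a-2 had 9 and mir-26a-1 had 4 of the 31 below it. Those 4 were mir-103a-2, let-7a-2, mir-16-1 and let-7f-1, whose major arms are also listed at several hairpins. Such miRNAs can enter the 31 with several of their hairpins, so the 31 are not independent. The minor share of mir-26b was thus in the middle of the abundant hairpins. That of mir-26a-1 was near the low end, but it uses the shared 5p row in full. The arm use of each mir-26a hairpin alone therefore cannot be read from it.

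**Figure D4:**
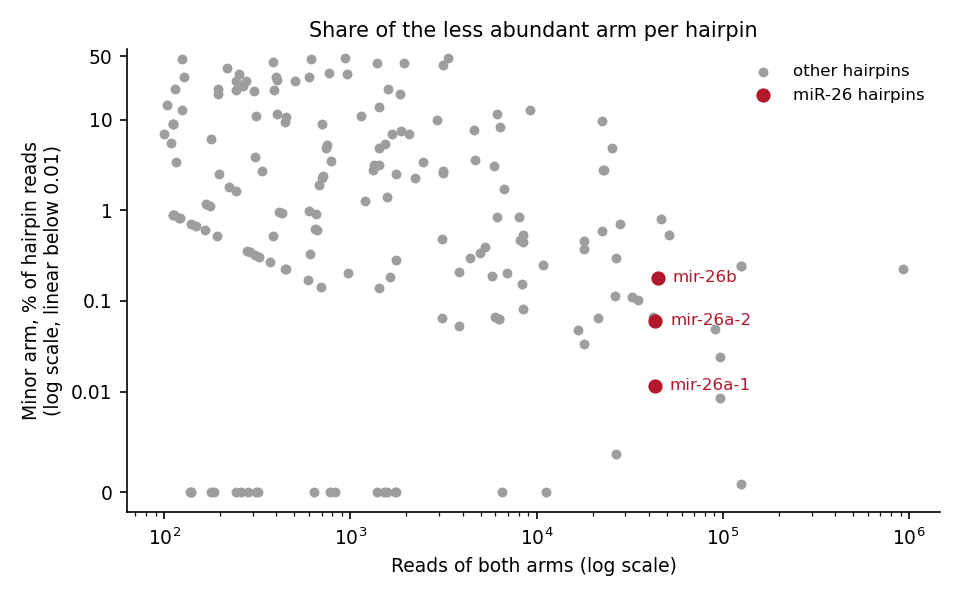
Share of hairpin reads on the less abundant arm (log axis, linear below 0.01%) against the reads of both arms (log axis) for 179 hairpins. The miR-26 hairpins (red) have similar totals and lie at 0.180% (mir-26b), 0.0599% (mir-26a-2) and 0.0115% (mir-26a-1). The shared miR-26a-5p reads are counted in full at both mir-26a hairpins.

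Other mature miRNAs also arise from a pair of hairpins whose opposite arms carry names of their own, and 13 such names with at least 100 reads were found. For miR-26a, the arm of mir-26a-2 held 83.9% of the hairpin-specific reads (interval 67.4 to 92.9%). The leading hairpin held a larger share in 8 of the other 12 names and a smaller share in 4, but several of these names had only a few hairpin-specific reads, where a leading share is high by construction. Among the 9 names with at least 20 such reads, 4 had a larger and 4 a smaller share than miR-26a. Over all 13 names, the intervals of 3 lay wholly above 83.9% and those of 3 wholly below, which takes the miR-26a value as exact. Among them, those of miR-125b-5p (90.2 to 96.8%) and miR-24-3p (54.1 to 72.1%) overlap the interval of miR-26a. In single pairs, miR-16-2-3p had 79 reads and miR-16-1-3p 1, and miR-30c-2-3p had 68 reads and miR-30c-1-3p 6. By contrast, miR-181a-2-3p (45 reads) and miR-181a-3p (38 reads) were close to balance. Relative to the shared strand, however, the miR-26a pair was sparse. Its 71.4 hairpin-specific reads per 100000 shared reads compared to a median of 410.7, and only let-7f-5p (33.1) was lower. A share of arm reads is not a measure of how much each host gene is transcribed, since strands differ in stability and in capture.

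**Figure D5:**
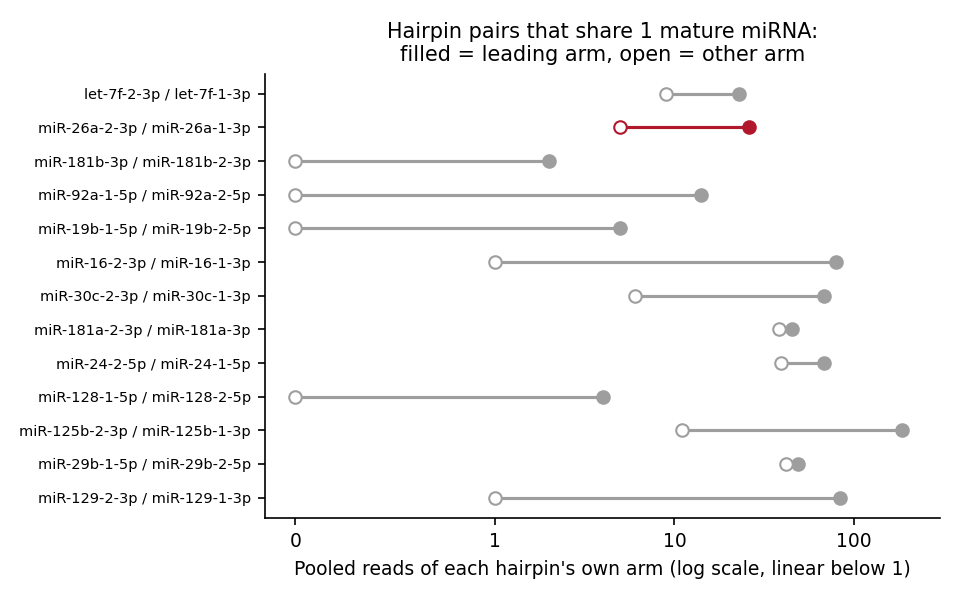
Pooled reads of the hairpin-specific arms (log axis, linear below 1) for 13 mature miRNAs made from a pair of hairpins, ordered by hairpin-specific reads per 100000 reads of the shared strand; filled points are the leading arm and open points the other. miR-26a-2-3p (26 reads) and miR-26a-1-3p (5 reads) are in red.

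The other human miRNAs with the miR-26 seed were not found. miR-1297 and miR-4465 both had 0 reads, for which the limit was set at 3 reads, a one-sided limit unlike the two-sided intervals given for other counts, or 0.000147% of the pool. At this depth the reads with this seed came from miR-26a-5p and miR-26b-5p among the names of the list.

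Further miRNA families lie in introns of paralogous host genes. All 7 listed names had fewer reads than miR-26a-5p, as did 99.7% of all mature names, so that this order is not particular to the list. The 5p miR-26 miRNAs together had 88290 reads, compared to 12865 for miR-103a-3p and miR-107 of the PANK genes, which encode pantothenate kinases, a 6.86-fold difference (interval 6.74 to 6.99). With all rows added, the 5p miR-26 miRNAs had 131676 reads, miR-103a-3p 22435 and miR-107 1616, so the size of this difference depends on the counting of rows. miR-128-3p of R3HDM1 and ARPP21 had 219 reads, miR-218-5p of the SLIT genes 73, miR-33a-5p of SREBF2 7, miR-153-3p of the PTPRN genes 1 and miR-33b-5p of SREBF1 0. Within the PANK pair the members were unequal, with 11249 reads of miR-103a-3p and 1616 of miR-107, unlike the miR-26 pair.

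miRNAs known to act on EZH2 or the hepatocyte cell cycle all had reads (7 of 7, against 26.3% of all names), and 5 of 7 had fewer reads than miR-26a-5p, against 99.7% of all names. The exceptions were miR-122-5p (922528 reads) and let-7a-5p (124454 reads). The list was written with earlier results of these data known, so its detection is a description and not a test. miR-26a-5p exceeded miR-101-3p, another repressor of EZH2 (17736 reads), by 2.45-fold (interval 2.40 to 2.49), miR-199a-3p by 1.95-fold (interval 1.92 to 1.98), miR-29a-3p by 4.0-fold (interval 3.92 to 4.09), miR-195-5p (4353 reads) by 9.97-fold (interval 9.66 to 10.3) and the p53 target miR-34a-5p (3804 reads) by 11.4-fold (interval 11.04 to 11.8). With all rows added, miR-26a-5p had 86789, miR-199a-3p 66678 and miR-101-3p 34457 reads. The counts of miR-29a-3p, miR-195-5p and miR-34a-5p stayed the same.

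Among miRNAs linked to hepatic insulin and glucose metabolism, 9 of 10 listed names were in the table and 8 had reads, against 26.3% of all names. This list was also written with earlier results of these data known, so its detection is a description and not a test. miR-26a-5p had more reads than 7 of the 9, against 99.7% of all names, and fewer than miR-122-5p and miR-378a-3p. The 7 include miR-802, which had 0 reads. The ratio of miR-26a-5p to miR-378a-3p was 0.848 (interval 0.837 to 0.859). miR-26a-5p exceeded miR-103a-3p, a repressor of insulin sensitivity in mice, by 3.86-fold (interval 3.78 to 3.94) and miR-107 by 26.9-fold (interval 25.6 to 28.2). With all rows added, miR-26a-5p had 86789 reads, miR-378a-3p 51168, miR-103a-3p 22435 and miR-107 1616. The order of miR-26a-5p and miR-378a-3p was then reversed. miR-378a-5p had 275 reads. The listed name miR-375-3p was not matched; the table holds miR-375 without an arm, with 497 reads.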

How the data were processed

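Small RNA libraries were made with the Illumina TruSeq kit from total RNA of vervet livers and sequenced on an Illumina GAIIx. The submitters' notes list the tools cutadapt 1.10 and Bowtie, without their roles, and per the study's methods, miRNAs were quantified with miRDeep2. The genome build is not given in the sources used here, nor is the miRNA release. The authors deposited raw read counts by mature miRNA and precursor, and the total count over all libraries was the column used. Another 20 columns, raw and normalized values of 10 numbered libraries, match no sample by name and were not used; on inspection 1 library held almost no reads. Library depth and the spread between animals are therefore not given, and pooled totals weigh deeper libraries more. The total was 2043164 reads with the highest row kept per name, and 2669761 with all rows added. Reads carried no stated molecular identifiers, so repeated reads of a molecule were not told apart and the intervals can be too narrow. The intervals cover counting error only, and adapter ligation differs between miRNAs.

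The miRNAs named were the members, the listed miRNAs (same seed, paralogous hosts, EZH2 or cell cycle, insulin and glucose, cell types), and the 2 names directly above and below each member; names in the comparisons of lettered members and of paired hairpins were picked with their values in view. The members and lists were chosen with earlier results of these data known. Alternatives were adding precursor rows, the lowest row, other totals and minima, and equal division of the shared 5p reads. Interval code was tested on simulated data. Python 3.11.15 and scipy 1.17.1 were used. Sequences are not printed here.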

Additional observations from a re-analysis of the deposited data

How the results depend on the processing

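The family share of 4.33% was 4.94% with all precursor rows added, 4.37% with the lowest row of each name, 4.38% with identical names counted once (14 names removed) and 7.89% without miR-122-5p in the total. The ratio of miR-26a-5p to miR-26b-5p changed direction with rows added (1.93), because 2 rows were then added for miR-26a-5p and 1 for miR-26b-5p; with the lowest row it was 0.967. With rows added, an alternative chosen after seeing the data for this value, the leading member exceeded the next by 1.93-fold. Dividing the miR-26a-5p reads equally between its hairpins gave a 5p share of 99.88% in mir-26a-2 and 99.98% in mir-26a-1. The ratio of miR-26b-5p to miR-194-5p was 0.969, 1.42 with the lowest row of miR-194-5p and 0.576 with its rows added, both chosen after seeing the data. With every name counted, also chosen then, the miR-26 pair took place 2 among lettered pairs. Of 10 ranks of the members under alternatives, 8 stayed within 1.5 times. Those that did not were the ranks of the abundant members with rows added, miR-26a-5p (from 8 to 5) and miR-26b-5p (from 7 to 11). The share of names reaching the minimum was 7.88% at 100 reads, 15.6% at 10 and 26.3% at 1. Among the 90 hairpins with at least 1000 reads, 66.7% had a larger minor arm share than mir-26b. Adding rows moved 8 of 24 listed miRNAs with reads beyond their counting interval.

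Depth limits the 3p members most. No paired analysis was possible because no column of a single library bears the name of a labelled animal. Single-library columns carry names that fit no sample and entered no calculation, so no library was left out in turn and no test of HFr against chow was run.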
